A study of Mus musculus with 2 samples.

Results

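The genes described here are those with which the mouse pancreas digests dietary fat: the triglyceride lipase Pnlip, its relatives Pnliprp1 and Pnliprp2, the colipase Clps, the bile salt-dependent lipase Cel and the secreted phospholipase Pla2g1b. They were chosen by name and not by a cut on their values, though with earlier results of these data known. All 6 were found once among the 43346 genes of the deposited tables. Levels come from polyA RNA-seq of the whole pancreas of 1 C57BL/6J mouse, an adult female aged 10 weeks. The RNA of this animal was made into 2 technical libraries, replicate 2, which per the labels was added after the first publication, and replicate 1. There is no treatment, mutant or second animal, so the spread between the libraries is technical and no p-value was computed.

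Pancreatic acinar cells make these proteins and secrete them into the gut. Pancreatic lipase cuts triglycerides at the surface of fat droplets, where bile salts would displace it, and colipase anchors it there. The bile salt-dependent lipase also cuts cholesterol esters and esters of fat-soluble vitamins, and the phospholipase releases fatty acids from phospholipids after trypsin has activated its precursor.

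Pnlip, Pnliprp1, Pnliprp2 and Cel encode serine hydrolases whose active serine lies between glycines, in the pattern glycine, any residue, serine, any residue, glycine. A search of the coding sequences translated from GENCODE M21 found this pattern, in the form typical of each family, 1 time in each of the 4 proteins. The serine of the pattern was codon 169 in Pnlip, 171 in Pnliprp1, 184 in Pnliprp2 and 214 in Cel. The windows are shown because they set the 3 related lipases, which could share reads, beside Cel, which is of another family. Each holds 51 coding bases of a single exon on GRCm38, written 5′ to 3′ on the coding strand, with the 5 codons of the pattern in capitals.
Pnlip (chr19:58675075-58675125, plus strand): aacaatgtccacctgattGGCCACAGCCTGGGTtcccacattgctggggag
Pnliprp1 (chr19:58733377-58733427, plus strand): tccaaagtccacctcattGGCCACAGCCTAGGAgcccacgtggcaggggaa
Pnliprp2 (chr19:58763350-58763400, plus strand): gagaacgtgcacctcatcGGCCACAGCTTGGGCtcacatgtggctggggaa
Cel (chr2:28559829-28559879, minus strand): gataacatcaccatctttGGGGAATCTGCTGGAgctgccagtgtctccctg
All 3 related lipases had the same base at 34 of the 51 positions. Pnlip shared 40 positions with Pnliprp1 and 38 with Pnliprp2, against 20 with Cel. Over the whole protein, Pnlip was 66.8% identical to Pnliprp1 and 69% identical to Pnliprp2, and Pnliprp1 and Pnliprp2 were 63.9% identical. Identity to Cel was 21.5% for Pnlip, 24.5% for Pnliprp1 and 22.7% for Pnliprp2. The longest run of identical bases between any 2 transcripts of the 3 related lipases was 23 bases, between Pnlip and Pnliprp1. The deposited posterior SD of the gene count was 0 in both libraries for all 6 genes, so no uncertainty over which gene their reads belong to was recorded.

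The deposited expected counts, estimates of reads per gene, summed to 9797569 in replicate 2 and 9441559 in replicate 1. A single gene, Gm42418, took 42.8% of counts in replicate 2 and 16.9% in replicate 1, and mitochondrial genes took 3.17% in replicate 2 and 17.6% in replicate 1. In both libraries 10332 genes reached 1 TPM, a measure of transcript level from counts per unit of length, scaled to the same total in each library. Acinar identity was checked on the 5 marker genes Cpa1, Rbpjl, Bhlha15, Ptf1a and Nr5a2, all of which were detected. The carboxypeptidase gene Cpa1 had 12130 TPM in replicate 2 and 17943 TPM in replicate 1. Intervals below hold no more than counting error, because PCR copies of a read are not independent.

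By mean TPM all 6 genes were among the 100 highest in the pancreas, and their order was the same in both libraries. Clps came first, followed by Pnlip, Pnliprp1, Cel, Pla2g1b and Pnliprp2. Together they took 5.24% of all TPM in replicate 2 and 5.74% in replicate 1, a mean of 5.49% ± 0.352 (SD, n = 2 technical libraries). As a share of counts this was 3.75% in replicate 2 (exact Clopper-Pearson interval at 95%, 3.74 to 3.76) and 5.05% in replicate 1 (5.04 to 5.06).

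**Figure D1:**
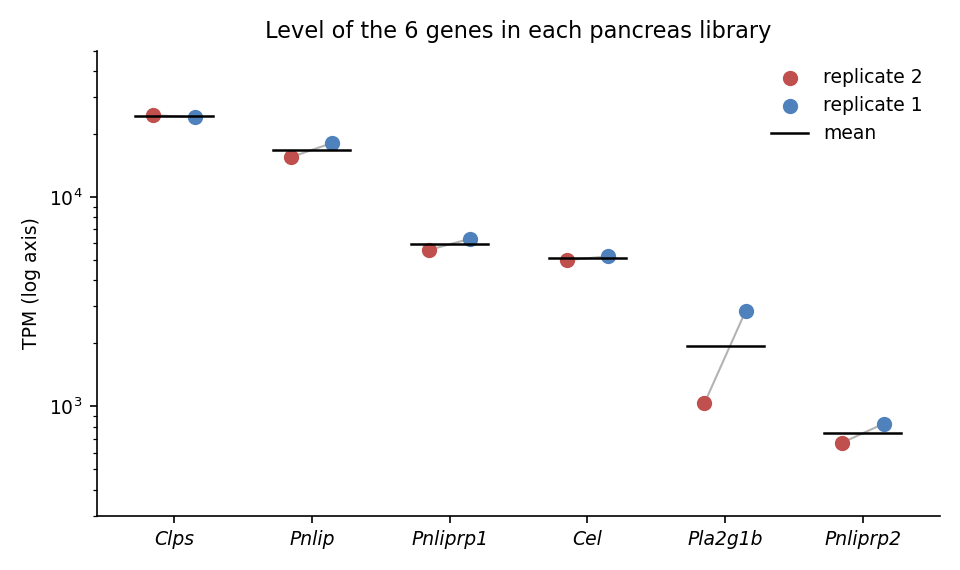
TPM of the 6 genes on a log axis, with a point for each technical library and a bar for their mean. Every neighbouring pair in the order is separated in both libraries, and Pla2g1b has the widest gap between libraries, at 1035 TPM in replicate 2 and 2863 TPM in replicate 1.

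Colipase had a higher transcript level in TPM than the lipase it serves. Clps (ENSMUSG00000024225.4, chromosome 17, 28558149 to 28560766, minus strand, 3 exons) had 24610.0 TPM in replicate 2 and 24016 TPM in replicate 1, and ranked 9 of all genes by mean. Its mean was 24313 ± 420.3 TPM, an SD of 1.73% of the mean. Pnlip (ENSMUSG00000046008.7, chromosome 19, 58652498 to 58681788, plus strand, 13 exons) had 15515 TPM in replicate 2 and 18150 TPM in replicate 1, a mean of 16832 ± 1863 TPM and rank 12.

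The level of Clps was 1.59 times that of Pnlip in replicate 2 and 1.32 times in replicate 1. In counts Pnlip was ahead, with 155672 in replicate 2 and 209661 in replicate 1, while Clps had 73454 in replicate 2 and 81156 in replicate 1. The 2 orders differ through length, since the transcript of Pnlip is 1485 bases long and that of Clps 550 bases. TPM divides by the effective length, the part of a transcript in which a fragment can start, and this was 396 bases for Clps in replicate 2 and 387 bases in replicate 1. With the full length in its place, an alternative chosen after seeing the data, the ratio was 1.28 in replicate 2 and 1.05 in replicate 1, so the size of the excess of Clps rests on this correction. In TPM the nearest genes to Clps were the amylase copy Amy2a3, at 24875 TPM in replicate 2 and 27487 TPM in replicate 1, and Gm10925 below it, at 6384 TPM in replicate 2 and 29627 TPM in replicate 1. Amy2a3 has near-identical copies, so its own level is uncertain. Pnlip lay between the elastase gene Cela1, at 22625 TPM in replicate 2 and 12187 TPM in replicate 1, and the insulin gene Ins2, at 17977 TPM in replicate 2 and 13969 TPM in replicate 1. The libraries of these neighbours overlap those of Pnlip, so ranks so close together carry little. By mean TPM, Pnliprp1 lay between Gm10222 and the carboxypeptidase gene Cpb1, Cel between the trypsin gene Try5 and Rn7s1, Pla2g1b between the insulin gene Ins1 and Tpt1, and Pnliprp2 between the amylin gene Iapp and the ribosomal gene Rplp1.

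The relatives of Pnlip were transcribed at lower levels. Human PNLIPRP1 has little lipase activity in vitro, and mouse Pnliprp2 takes part in the digestion of milk fat by suckling pups. Pnliprp1 (ENSMUSG00000042179.5, chromosome 19, 58728887 to 58744169, plus strand, 13 exons) had 5587 TPM in replicate 2 and 6318 TPM in replicate 1, a mean of 5952 ± 517 TPM. Pnliprp2 (ENSMUSG00000025091.3, chromosome 19, 58759719 to 58777534, plus strand, 12 exons) had 670.0 TPM in replicate 2 and 824 TPM in replicate 1, a mean of 747 ± 109 TPM, the lowest of the 6. Pnlip therefore stood 2.78 times above Pnliprp1 in replicate 2 and 2.87 times in replicate 1, and 23.2 times above Pnliprp2 in replicate 2 and 22.02 times in replicate 1. Within a library these ratios do not depend on how the libraries are scaled to each other.

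The 3 related lipase genes lie in a row on 1 strand of chromosome 19, within 125 kb. Between Pnlip and Pnliprp1 lies 1810018F18Rik (58698917 to 58715770), annotated as a transcribed unprocessed pseudogene. It had 119 TPM in replicate 2 and 133 TPM in replicate 1, under the level of each of the 3 lipases. Its longest run of bases identical to Pnlip was 29 bases. Upstream of Pnlip the non-coding 1810007D17Rik had 9.69 TPM in replicate 2 and 13.0 TPM in replicate 1, and downstream of Pnliprp2 the gene 1700019N19Rik had 0 counts in both. None of these neighbours came near the level of the lipases. Beside Clps, the colipase-like gene Clpsl2 had 0 counts in both libraries.

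Cel (ENSMUSG00000026818.5, chromosome 2, 28555795 to 28563403, minus strand, 11 exons) had 4989 TPM in replicate 2 and 5204 TPM in replicate 1, a mean of 5096 ± 153 TPM. It stood close below Pnliprp1, which was 1.12 times higher in replicate 2 and 1.21 times higher in replicate 1. The antisense gene Gm13381, which overlaps the start of Cel, had 1 count in replicate 2 and 3 counts in replicate 1.

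Pla2g1b (ENSMUSG00000029522.8, chromosome 5, 115466262 to 115474722, plus strand, 4 exons) was the member on which the libraries differed most. It had 1035 TPM in replicate 2 and 2863 TPM in replicate 1, a mean of 1949 ± 1293 TPM, and its SD was 66.3% of the mean. Of the summed TPM of the 6 genes, it held 1.98% in replicate 2 and 4.99% in replicate 1. Its level was 1.54 times that of Pnliprp2 in replicate 2 and 3.47 times in replicate 1, so its place above Pnliprp2 held in both. The shares of Clps were 47.0% in replicate 2 and 41.9% in replicate 1, and those of Pnlip 29.6% in replicate 2 and 31.6% in replicate 1. The other shares moved by fewer percentage points, with Pnliprp1 holding 10.7% in replicate 2 and 11.01% in replicate 1. Cel held 9.52% in replicate 2 and 9.07% in replicate 1, and Pnliprp2 1.28% in replicate 2 and 1.44% in replicate 1. Relative to its own size, the share of Pnliprp2 moved more than that of Pnlip.

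Ratios between the libraries were taken on counts scaled with TMM factors, with 0.5 added to each count, and genes averaging at least 10 counts were tested. A gene was called where its log2 ratio reached 1 in either direction. Of 12452 such genes, 9.33% were called higher in replicate 2 and 5.2% lower. All 6 members passed the count filter, none was called higher and Pla2g1b was called lower. With 6 genes, 1 call is not set apart from these shares.

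Pla2g1b had 3099 counts in replicate 2 and 9769 in replicate 1, a log2 ratio of -1.17 (interval -1.23 to -1.11), and was therefore 2.26-fold higher in replicate 1. For Clps the log2 ratio was 0.34 (0.32 to 0.35). The other 4 lay nearer 0, at 0.11 for Cel, 0.10 for Pnliprp1, 0.05 for Pnlip and -0.02 for Pnliprp2. The interval of Pnliprp2 included 0 (-0.07 to 0.02).

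Large ratios were common among genes of such depth, mitochondrial genes included. All 6 belong to the 65 genes that averaged at least 5000 counts, of which 24.6% were called lower and 12.3% higher in replicate 2. The SD of the log2 ratio was 1.37 over these 65 genes and 0.80 over all tested genes, against 0.54 over the 6. The ratio of Pla2g1b was at percentile 3.3 of all tested genes and at percentile 21.5 of the 65, where a lower percentile means higher in replicate 1. Gm42418 and the mitochondrial genes were not left out of the 65, so these shares, the SD and the percentile include them. No value of this class without them was computed. The gaps between the libraries in Gm42418 and in the mitochondrial genes stand beside this result, and their part in it was not tested.

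**Figure D2:**
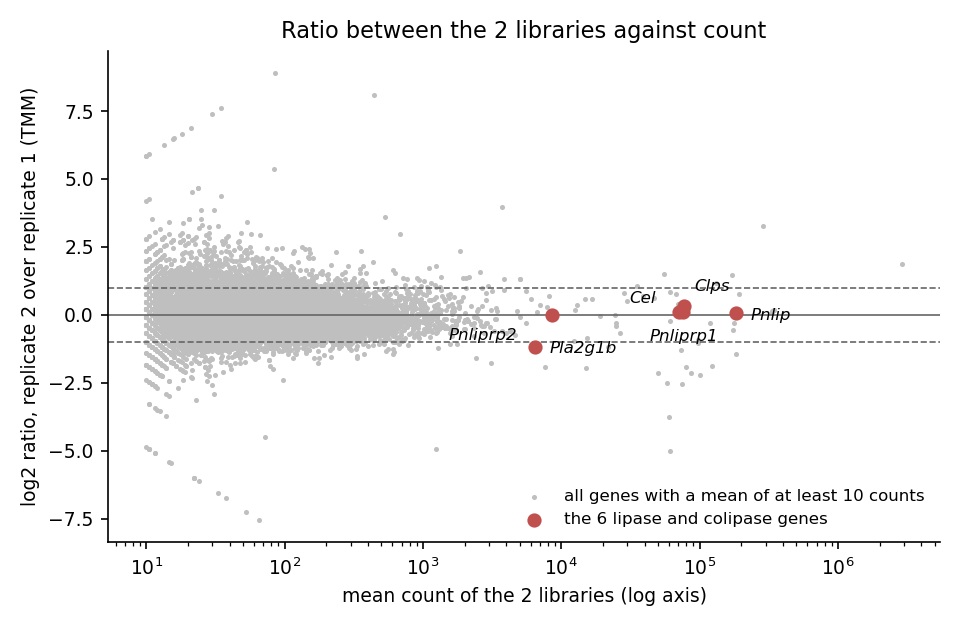
Log2 ratio of replicate 2 over replicate 1 against the mean count, on a log axis, for the 12452 tested genes in grey and the 6 lipase and colipase genes in red, with dashed lines at the called fold. Pla2g1b lies below the lower line at -1.17, while the other 5 lie between -0.02 and 0.34.

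The scaling decided the sign of the small ratios of Clps, Pnlip, Pnliprp1 and Cel but not the call of Pla2g1b. With library totals in place of TMM every ratio shifted by -0.54, so that Clps stood at -0.20, Cel at -0.43, Pnliprp1 at -0.44 and Pnlip at -0.48. Scaled on 12 other acinar enzyme genes the shift was -0.39 and Clps stood at -0.05. Totals without abundant genes, meaning the mitochondrial genes and the 5 most counted others, gave a shift of -0.30. Pla2g1b was called lower in replicate 2 under every scaling, from -1.17 to -1.71. No direction is therefore given to Clps, Pnlip, Pnliprp1 or Cel. Pnliprp2 stayed under 0, from -0.02 with DESeq2 size factors to -0.56 with library totals. Its interval with TMM included 0, so no direction is given to Pnliprp2 either.

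**Figure D3:**
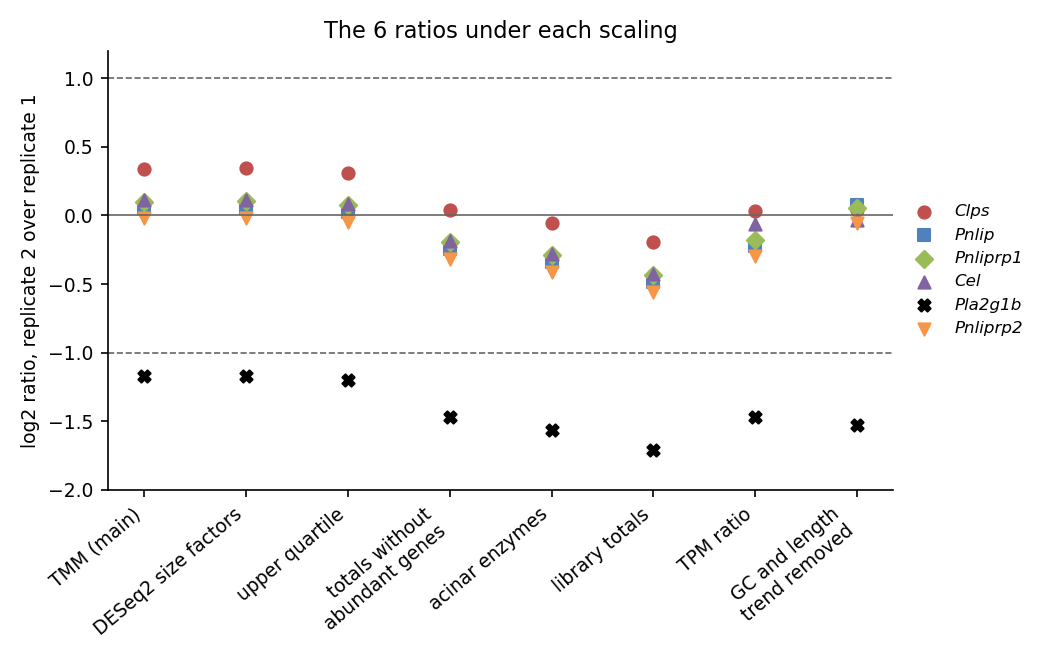
Log2 ratio of replicate 2 over replicate 1 for the 6 genes under TMM and 7 alternatives, with dashed lines at the called fold. The values of Pla2g1b lie under -1 in every column, and those of Clps are between -0.20 and 0.34. A change of total moves all 6 points by the same amount.

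Pairs of the 6 genes gave 15 ratios within a library. The 10 that leave out Pla2g1b changed 1.03-fold to 1.26-fold between libraries, and the 5 with Pla2g1b changed 2.25-fold to 2.83-fold. The transcript of Pla2g1b is 557 bases long with 54.9% GC, and that of Clps 550 bases long with 54.2% GC. After a trend on GC content and length over the tested genes without mitochondrial genes was subtracted, the log2 ratio was -1.53 for Pla2g1b and 0.04 for Clps. What sets the difference between the libraries in Pla2g1b was not tested.

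The tables hold 11 transcripts of the 6 genes. Pnlip, Pnliprp1 and Pnliprp2 have 1 each, and the main transcript of Clps, Clps-201, held 99.6% of the TPM of its gene in replicate 2 and 99.7% in replicate 1. Clps-202, which lacks the middle exon, held 0.41% in replicate 2 and 0.325% in replicate 1. Of the 4 transcripts of Pla2g1b, Pla2g1b-201 held 96.2% in replicate 2 and 97.7% in replicate 1. Its log2 ratio was -1.19, close to that of the gene.

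Cel differed from this. Its coding transcript Cel-201 held 90.2% of the TPM of the gene in replicate 2 and 99.0% in replicate 1. The remainder was Cel-202, a short non-coding model of 4 exons, at 486 TPM in replicate 2 and 49.2 TPM in replicate 1. It had 1403 counts (posterior SD 24.3) in replicate 2 and 160 counts (posterior SD 5.85) in replicate 1. As a share of the counts of Cel this was 2.12% in replicate 2 and 0.187% in replicate 1, a log2 ratio of 3.61 (3.38 to 3.86), while that of Cel-201 was 0.08.

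The models show which bases separate the 2 transcripts. Cel-202 shares 495 bases with Cel-201, and its other 41 bases lie at its start (chromosome 2, 28563363 to 28563403), directly before the coding sequence. Cel-201 is annotated with 0 bases before its coding sequence, so a read over the first bases of a Cel message with a leader fits only Cel-202. The RefSeq start of Cel, at base 28563403, is the start of Cel-202 and not that of Cel-201, at 28563362. Reads per base are not given in the tables, so whether the counts of Cel-202 belong to the short model or to full-length messages with this leader was not tested.

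The share of Cel-202 also entered the TPM of the gene. Averaged over both models, the effective length of Cel was 1761 bases in replicate 2 and 1886 bases in replicate 1. With all counts of Cel put on the length of Cel-201, an alternative chosen after seeing the data, its level was 4600 TPM in replicate 2 and 5165 TPM in replicate 1, a ratio of 0.891 in place of the 0.959 from the deposited values.

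**Figure D4:**
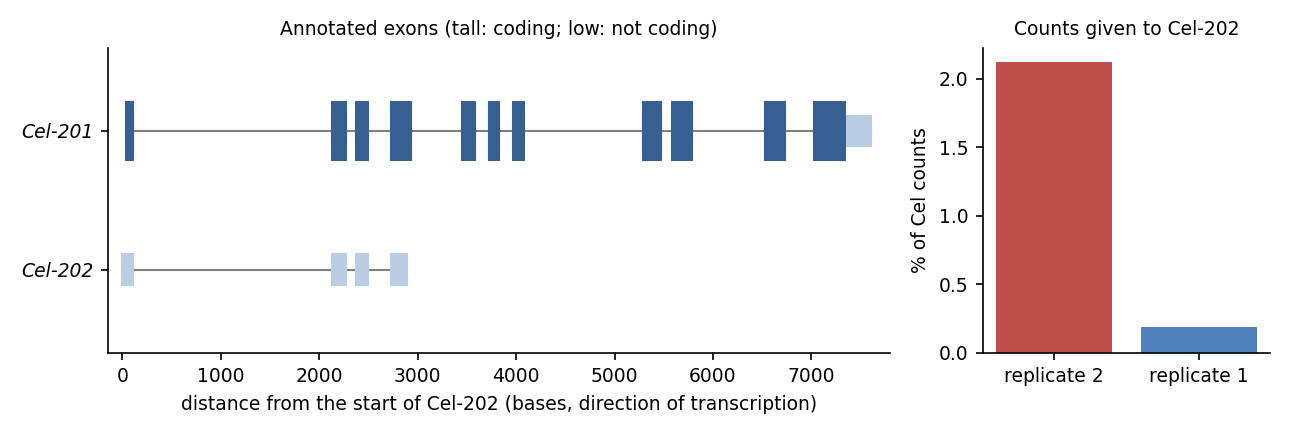
Left, annotated exons of Cel-201 and Cel-202 by distance from the start of Cel-202 in bases, with coding parts tall. Right, percent of the counts of Cel given to Cel-202 in each library, 2.12% in replicate 2 and 0.187% in replicate 1.

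The table of RefSeq promoters held 5 of the 6 genes, Clps being the exception. The 250 bases before the RefSeq start of Pnlip, the highest of the lipases, and of Cel, whose models start at different bases, are shown on GRCm38.p6, 5′ to 3′ on the strand of the gene. The window of Pnlip lies inside the GENCODE M21 span of the gene, which begins at base 58652498. Its RefSeq start is thus downstream of the start used for the position of Pnlip and the 125 kb above. Capitals mark matches on either strand to TGGGAA, the core bound by the RBPJ family, AAGGTCA, bound by NR5A2, and TATAAA, the TATA box.
Pnlip (chr19:58670115-58670364, plus strand): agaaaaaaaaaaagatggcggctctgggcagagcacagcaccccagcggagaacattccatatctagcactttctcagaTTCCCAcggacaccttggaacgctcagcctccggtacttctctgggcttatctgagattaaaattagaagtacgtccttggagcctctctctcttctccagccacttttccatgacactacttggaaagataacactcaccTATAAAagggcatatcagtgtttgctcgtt
Cel (chr2:28563404-28563653, minus strand): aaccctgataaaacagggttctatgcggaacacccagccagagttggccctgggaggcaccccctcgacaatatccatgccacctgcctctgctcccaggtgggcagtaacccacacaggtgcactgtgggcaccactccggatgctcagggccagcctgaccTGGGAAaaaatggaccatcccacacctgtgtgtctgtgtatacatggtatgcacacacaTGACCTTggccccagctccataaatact
In Cel, TGGGAA began 87 bases before the start and TGACCTT, the reverse complement of AAGGTCA, 28 bases before it. The longer CAAGGTCA, which contains AAGGTCA, was matched in Cel and in 1.33% of all 32851 promoters of this length, and AAGGTCA in 4.08%. TGGGAA was found in Cel, Pnlip and Pnliprp1 and in 21.6% of all promoters, and the longer TTTCCCA, which contains its reverse complement, in Cel and in 6.82%. TATAAA was found in Pnlip, 30 bases before the RefSeq start, and in 12.4% of all promoters. The E-box CANNTG was found in Cel, Pnliprp1 and Pnliprp2 and in 66.2%. These are matches of letters within this window and not sites of binding.

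Transcripts of the factors known to bind such motifs in acinar cells were present at levels below those of the 6 genes. Rbpjl, the acinar member of the RBPJ family, had 294 TPM in replicate 2 and 190 TPM in replicate 1. Its partner Ptf1a had 9.01 TPM in replicate 2 and 7.91 TPM in replicate 1, and Nr5a2 had 2.37 TPM in replicate 2 and 3.43 TPM in replicate 1. Xbp1, a regulator of secretory capacity, had 99.1 TPM in replicate 2 and 110 TPM in replicate 1, and the acinar factor Bhlha15 had 29.1 TPM in replicate 2 and 25.8 TPM in replicate 1. Of the 9 acinar factors listed, 8 reached 1 TPM in both libraries, 1 was called higher in replicate 2, Nr0b2 with 21 counts in replicate 2 and 12 in replicate 1, and none lower. Nr0b2 fell under the fold with library totals (0.73), acinar enzymes (0.88) and totals without abundant genes (0.97).

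The 6 genes stood apart in level from the other lipases of the genome that were examined. Of 24 other lipase genes and partners, 12 reached 1 TPM in both libraries, 12 were tested, and none was called with TMM. Under scalings tried on the lists after seeing the data, Lmf1, which matures lipases, was called lower in replicate 2 with library totals (-1.29), acinar enzymes (-1.15) and totals without abundant genes (-1.05), and the lysosomal lipase Lipa with library totals (-1.12). The 24 genes summed to 140 TPM in replicate 2 and 167 TPM in replicate 1. Highest was Gpihbp1, the capillary anchor of lipoprotein lipase, at 31.2 TPM in replicate 2 and 38.1 TPM in replicate 1. Lipoprotein lipase itself, Lpl, had 21.4 TPM in replicate 2 and 33.5 TPM in replicate 1. The carboxylesterase Ces1d had 24.9 TPM in replicate 2 and 17.3 TPM in replicate 1, and the monoglyceride lipase Mgll had 19.0 TPM in replicate 2 and 19.7 TPM in replicate 1. Gastric lipase, Lipf, had 0 counts in both libraries. Even Pnliprp2 stood 21.4 times above Gpihbp1 in replicate 2 and 21.7 times in replicate 1.

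Among the phospholipase A2 genes examined, only Pla2g1b had a high transcript level. Of 18 other phospholipase A2 genes and relatives, 9 reached 1 TPM in both libraries, and none of the 9 tested was called under any scaling tried. Their sum was 21.6 TPM in replicate 2 and 30.4 TPM in replicate 1. Highest was Pla2g12a, a secreted form, at 4.11 TPM in replicate 2 and 6.88 TPM in replicate 1. Pla2g16 had 3.84 TPM in replicate 2 and 4.65 TPM in replicate 1, Pla2g4a, the cytosolic form, 1.44 TPM in replicate 2 and 5.09 TPM in replicate 1, and Pla2g2f 2.12 TPM in replicate 2 and 3.38 TPM in replicate 1. The 6 genes together held 324.5 times the TPM of both lists combined in replicate 2 and 291 times in replicate 1.

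**Figure D5:**
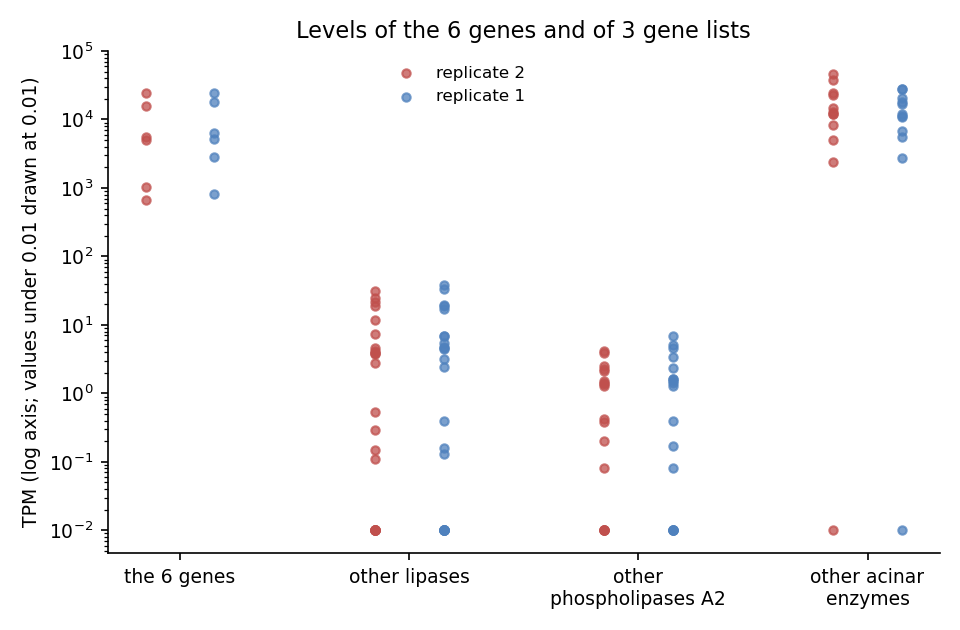
TPM on a log axis for the 6 genes, 24 other lipases and partners, 18 other phospholipases A2 and 12 other acinar enzymes, with replicate 2 left of replicate 1 in each list and values under 0.01 drawn at 0.01. The lowest of the 6, Pnliprp2, lies above every gene of both lipid enzyme lists, and Clps and Pnlip lie within the range of the other acinar enzymes.

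A further list joined the colipase-like gene Clpsl2 to genes that take up, rebuild or export fat. Of its 10 genes, 3 reached 1 TPM in both libraries and 1 of 4 tested was called, the acyltransferase Dgat1, at 8.84 TPM in replicate 2 and 5.14 TPM in replicate 1. Its log2 ratio of 1.198 fell under the fold with library totals (0.66), acinar enzymes (0.81) and totals without abundant genes (0.90). The fatty acid carrier Cd36 had 15.7 TPM in replicate 2 and 22.2 TPM in replicate 1, Dgat2 3.23 TPM in replicate 2 and 2.08 TPM in replicate 1, and Mttp 0.36 TPM in replicate 2 and 0.5 TPM in replicate 1. Markers of gut and stomach were near 0, with 5.68 TPM in all in replicate 2 and 6.94 TPM in replicate 1 over 6 genes, of which Fabp1, Gkn1 and Gif had 0 counts in both. Lyz1 had 2.51 TPM in replicate 2 and 4.89 TPM in replicate 1, Vil1 2.67 TPM in replicate 2 and 2.05 TPM in replicate 1, and Defa24 1 count in replicate 2 and 0 in replicate 1. Neither of the 2 tested was called with TMM, while Lyz1 was lower in replicate 2 with library totals (-1.20) and acinar enzymes (-1.05).

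Among the other acinar enzymes 4 of the 11 tested were called. Of 12 listed, 11 reached 1 TPM in both and Dnase1 had 0 counts. In replicate 2 the elastase genes Cela2a, Cela1 and Cela3b were called higher, with log2 ratios of 1.467, 1.176 and 1.498, and the ribonuclease Rnase1 lower, at -1.02. Over all tested genes 9.33% were called higher and 5.2% lower. The 11 belong to the 65 genes averaging at least 5000 counts, of which 12.3% were called higher and 24.6% lower. With library totals none of the 3 elastase genes was called, at 0.93 for Cela2a, 0.64 for Cela1 and 0.96 for Cela3b, and Cela1 was not called with acinar enzymes (0.79) or totals without abundant genes (0.88). The acinar enzymes scaling sums the counts of these same 12 genes, so it is not independent of their ratios. Cela2a had 46734 TPM in replicate 2 and 16702 TPM in replicate 1, and Rnase1 had 8203 TPM in replicate 2 and 20289 TPM in replicate 1. The median log2 ratio over the 11 tested was 0.40, against 0.08 over the 6 and -0.01 over all tested genes. The chymotrypsinogen gene Ctrb1 had 38071 TPM in replicate 2 and 27460 TPM in replicate 1, and the amylase gene Amy2a5, one of several near-identical copies, 24375 TPM in replicate 2 and 28162 TPM in replicate 1.

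Markers of other pancreatic cells were measured beside these results. Of 7 endocrine markers all reached 1 TPM in both libraries, and they summed to 23619 TPM in replicate 2 and 21934 TPM in replicate 1. The glucagon gene Gcg was called lower in replicate 2, at 1566 TPM in replicate 2 and 4235 TPM in replicate 1, and the pancreatic polypeptide gene Ppy higher, at 86.5 TPM in replicate 2 and 25.7 TPM in replicate 1. Both calls held under each scaling tried.

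Of 8 adipocyte markers 7 reached 1 TPM in both, their sum being 324 TPM in replicate 2 and 453.5 TPM in replicate 1. Their median log2 ratio was 0.03, and the single genes went both ways. Fabp4 had 146 TPM in replicate 2 and 254 TPM in replicate 1, and Car3 had 67.3 TPM in replicate 2 and 108 TPM in replicate 1. Cfd had 75.2 TPM in replicate 2 and 54.8 TPM in replicate 1, and Adipoq had 14.2 TPM in replicate 2 and 17.5 TPM in replicate 1. The leptin gene Lep, with 6 counts in replicate 2 and 19 in replicate 1, was called lower. Library totals gave 3 lower calls in this list in place of 1, with Fabp4 at -1.07 and Car3 at -1.02. Fat cells and capillaries also transcribe Lpl, Gpihbp1 and Cd36, and their part in those levels was not tested.

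Of 6 duct markers 5 reached 1 TPM in both, their sum being 142 TPM in replicate 2 and 153 TPM in replicate 1. The highest were Spp1, at 81.3 TPM in replicate 2 and 99.1 TPM in replicate 1, then Muc1, Krt19 and Krt7. None was called with TMM, while Sox9 was lower in replicate 2 with library totals (-1.48), with acinar enzymes (-1.34) and with totals without abundant genes (-1.24). All 5 macrophage markers reached 1 TPM, their sum being 120 TPM in replicate 2 and 119 TPM in replicate 1. The highest were Lyz2, at 82.7 TPM in replicate 2 and 86.4 TPM in replicate 1, then C1qa, Cd68 and Csf1r. None was called with TMM, and Cd68 was lower with library totals (-1.08). In whole tissue, fewer cells of a type and less RNA per cell cannot be told apart.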

How the data were processed

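The deposited tables hold, per the file headers, an expected count, a posterior mean count with its SD, TPM and FPKM per gene and transcript, for both libraries. The deposited posterior mean TPM was treated as a signal and the lengths and the posterior SD as a score. The deposited percent of each isoform was checked against shares computed from transcript TPM. Values rest on mm10 and GENCODE M4, per the labels and the deposited notes. Aligner and quantifier, not given in the sources used here, stay unnamed. Another 26345 rows, with 0 counts, were left out.

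Expected counts were rounded. Totals were scaled with TMM factors of edgeR 4.0.16 in R 4.3.3 over all genes. With 1 library on each side no residual degrees of freedom remain, so a fold of 2 was used and no p-value, and intervals are exact Clopper-Pearson intervals at 95%. Depth sets their width. The trend on GC content and length was fitted with mgcv 1.9.3 on tested genes without mitochondrial genes. GC content was known for 99.8% of all tested genes, and the trend was subtracted for these. The calculation was tested on simulated counts with planted changes and counting error alone. These lack the wider spread between the real libraries, so the test covers the arithmetic and not the calls made here. Alternatives included DESeq2 1.42.0 size factors. Symbols, positions and coding sequence came from GENCODE M21 and promoters from RefSeq. Python 3.11.15, pandas 2.3.3, scipy 1.17.1 and Biopython 1.88 were used.

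The 6 genes and the lists were chosen with earlier results of these data known. Named were all 6 genes, the genes next to them in mean TPM, and of each list the 4 highest and every called gene with at least 100 counts. Other list genes named in the text, the locus neighbours and the class of 65 genes were picked once the values were known. The libraries share 1 animal, so nothing here speaks of variation between mice.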

Additional observations from a re-analysis of the deposited data

How the results depend on the processing

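Of 142 alternative values, 109 were taken as kept. A log2 ratio had to keep its direction and its side of the fold. A level, a share or a ratio within a library had to stay within the SD of both libraries. A count had only to stay within a fixed fold of its main value, with no spread used. By that rule 2441 genes past the fold with acinar enzymes and 2531 as a TPM ratio were kept, against 1809 with TMM. Part of the 109 could not have moved, so their number overstates how stable the results were. A value with either library left out always lies within the SD of both. A count filter leaves the ratio of each member unchanged, and FPKM leaves shares and ratios within a library unchanged. The log2 ratio of Pnlip was -0.48 with library totals, -0.24 with totals without abundant genes (mitochondrial genes and the 5 most counted others), -0.34 with acinar enzymes and -0.23 as a TPM ratio. In the same 4 settings Pnliprp1 gave -0.44, -0.20, -0.29 and -0.18, and Cel gave -0.43, -0.19, -0.28 and -0.061, with -0.031 for Cel once the trend on GC and length was subtracted. Clps turned to -0.20 with library totals and -0.052 with acinar enzymes. A change of total shifts every ratio by the same amount, and for the TPM ratio and the trend the cause was not tested. Pla2g1b kept its call in every setting.

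The number of genes past the fold, 1809 with TMM, was 3130 with library totals, 5505 without a count filter and 329 at a mean of at least 100 counts. The share of calls that were higher in replicate 2 was 64.2% with TMM, 12.4% with library totals, 29% with totals without abundant genes, 20.6% with acinar enzymes, 29.4% as a TPM ratio, 75.3% at a pseudocount of 5 and 50.6% without the GC and length trend. The share of TPM held by the 6 genes was 5.02% by posterior mean TPM and 10.7% without abundant genes, and 5.24% to 5.74% when either library was left out. The ratio of Clps to Pnlip was 1.16 on full lengths, and 1.32 to 1.59 when either library was left out. When either was left out Cel-201 held 90.2% to 99.0%, Clps-201 99.6% to 99.7% and Pla2g1b-201 96.2% to 97.7%. At 10 TPM, 5 other lipases and 0 other phospholipases A2 were detected. The order of the 6 genes was the same in both libraries by TPM, posterior mean TPM and full length. FPKM is proportional to TPM within a library, so its order could not differ.

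No paired analysis was possible because both libraries come from 1 animal and form 1 group. With 2 libraries no outlier test applies, and the posterior SD and counting intervals do not hold the spread between library preparations.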
